A study of Homo sapiens with 2 samples.

Results

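The ZMIZ1 locus on the long arm of chromosome 10 was examined for binding of oestrogen receptor α (ERα) in T47D cells, an established ERα-positive human breast cancer line. The locus is the set of deposited ERα peaks whose centre lies in chr10:80600000-81200000 of the hg19 build. It holds 25 of the 12688 peaks of the list. The window was chosen with the peaks of this list known, so its peak number and its scores are given as a description and without a test. For the chromatin immunoprecipitation (ChIP) library, cells spent 48 h in medium depleted of steroids and received 17β-estradiol at 10 nM for 45 min, and the antibody H-20 against ERα was used. The input library, made without an antibody, came from T47D cells with the same depletion and estradiol treatment. With 1 ChIP and 1 input library no value has a replicate error, and no library without estradiol was used here. A peak list holds no expression values, so the ERα-positive label of the cells was not checked against markers.

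ERα is a nuclear receptor that binds DNA as a dimer when oestrogen occupies it, at palindromic oestrogen response elements or through other bound factors. In breast cancer cells much of its binding is known to lie at enhancers inside introns or between genes, away from promoters. ZMIZ1, also called ZIMP10, encodes a protein with a MIZ-type zinc finger related to the PIAS family, which acts as a coactivator of several transcription factors, the androgen receptor among them. Peak positions alone do not say which gene a site acts on.

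ZMIZ1 lies on the plus strand at chr10:80828792-81076285 and is 247.5 kb long. The locus was divided at the gene start, the gene midpoint at 80952538 and the gene end. This gave an upstream flank of 228.8 kb, a proximal and a distal part of the gene of 123.7 kb each, and a downstream flank of 123.7 kb. In RefSeq's gene table, which follows another build and from which no coordinates of ZMIZ1 were taken, the neighbour before ZMIZ1 is the long non-coding RNA gene ZMIZ1-AS1. The neighbours after it are PPIF, which encodes the mitochondrial peptidyl-prolyl isomerase cyclophilin D, and ZCCHC24. No exon map of the hg19 build was used, so peaks inside ZMIZ1 are placed by distance and not as exonic or intronic.

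The proximal part of ZMIZ1 held more of the peaks than any other segment, and the highest scores of the locus lay there too. Of the 25 peaks, 17 lay inside the gene, 12 in its proximal part and 5 in its distal part. The upstream and the downstream flank held 4 peaks each. The 6 highest scores of the locus all belonged to the proximal part. The score is the authors' own value for each peak on an unstated scale, and it serves only to rank peaks within this list.

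**Figure D1:**
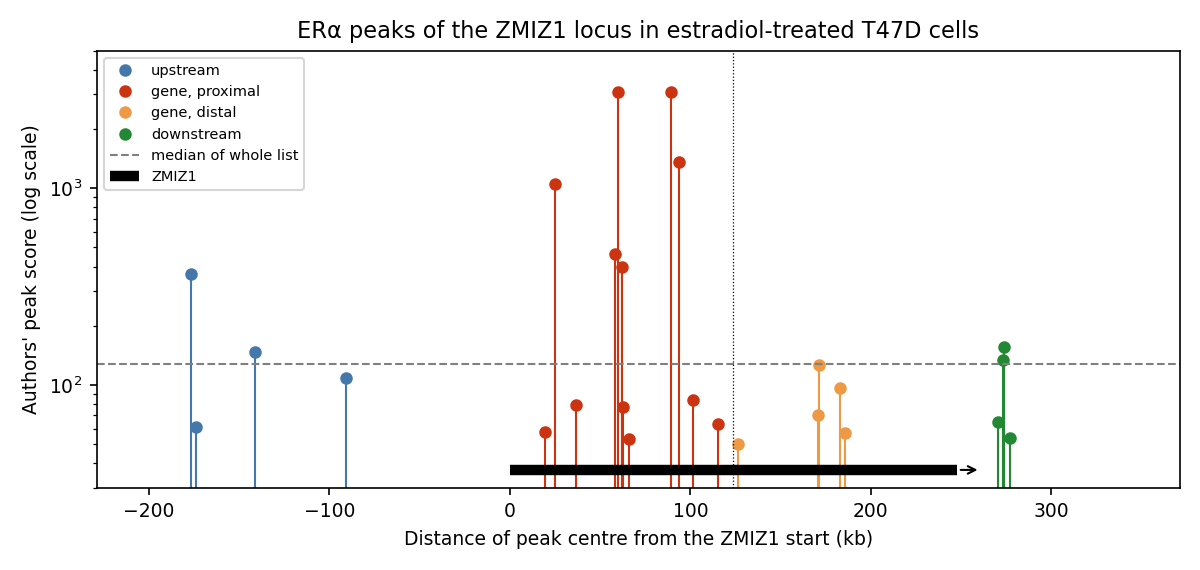
Each point is a peak, with its centre as the distance from the ZMIZ1 start in kb on the x axis and its score on a logarithmic y axis; the black bar is ZMIZ1 with its direction, the dotted line its midpoint and the dashed line the median score of the whole list, 128.26. The 6 points above 367.90 all stand between the gene start and the midpoint, and no point stands at the start or the end of the gene.

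No peak lay at the start of ZMIZ1. The nearest peak inside the gene, chr10:80847710-80848251, had its centre 19.2 kb from the start and a low score of 57.70. The nearest peak on the upstream side, chr10:80737507-80737974, had its centre 91.1 kb from the start and a score of 108.99. The peak-free stretch between these peaks measured 109.7 kb and was the longest inside the locus. Its length was not rare in the list, where 62.5% of the gaps between neighbouring peaks on chromosomes 1 to 22 and X were shorter.

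The gene end was likewise bare. The last peak inside ZMIZ1, chr10:81013927-81014600, stood 62.0 kb before the gene end with a score of 57.08. The first peak beyond the end, chr10:81098916-81099367, stood 22.9 kb past it with a score of 64.65. The stretch of 84.3 kb between them was the next longest gap of the locus, longer than 57.7% of the gaps in the list. Both ends of ZMIZ1 therefore fell into the 2 longest of the 24 gaps inside the locus.

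The sequence at hand nearest to the gene start is the promoter of ZMIZ1-AS1, shown here because ZMIZ1-AS1 is the gene next to that start in RefSeq's table; ZMIZ1 itself has no entry in the promoter table. The sequence runs from 250 bases before to 50 bases after the ZMIZ1-AS1 start at chr10:79067399-79067698 on the minus strand of GRCh38.p14, from RefSeq, and the capitals mark the 50 bases after the start.
ZMIZ1-AS1: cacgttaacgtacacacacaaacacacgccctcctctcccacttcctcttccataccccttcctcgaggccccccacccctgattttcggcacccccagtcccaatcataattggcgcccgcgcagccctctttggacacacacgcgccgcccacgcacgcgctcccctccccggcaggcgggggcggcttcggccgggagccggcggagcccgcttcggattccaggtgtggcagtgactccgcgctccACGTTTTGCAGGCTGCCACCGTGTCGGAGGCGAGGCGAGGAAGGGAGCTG
These 300 bases have a GC content of 67.3%, against a median of 58.7% over 35116 RefSeq promoters of the same length. They were searched on both strands for the palindrome GGTCANNNTGACC, for the half-site AGGTCA, and for its core GGTCA, which the other two contain. There were 0 matches to any of them. Of the 35116 promoters, 0.057% held the palindrome, 13.8% the half-site and 37.4% the core. Peak positions were not carried to this build, and the sequences under the peaks themselves were not used here.

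In the proximal part of ZMIZ1 the scores fell into a high and a low set. A group of 6 peaks scored 398.04 or more and the other 6 scored 83.45 or less, with none between. In the whole list 43.7% of the peaks scored between these limits. The limits are read from the same 12 scores, and the division is a description. The median of the 12 scores was 240.75, and since no peak lies near it, it describes neither set. Of the 12, 6 (50%) reached the list's median score, as 50% of all peaks do by definition. The same 6 were among the highest-scoring 25.0% of the list.

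The highest scores of the locus belonged to 2 peaks with the score 3100. The peak chr10:80887912-80889134 was 1223 bp wide with its centre 59.7 kb from the gene start. The peak chr10:80916904-80918853 was 1950 bp wide with its centre 89.1 kb from the start, and it ranked 63 by width among all peaks of the list. Exactly 235 peaks of the list carry the score 3100 and 34 exceed it, so these 2 cannot be ranked against each other. So many equal values may mark a ceiling of the score, which was not tested, and 3100 may then be a lower limit for these 2 peaks. Scores of 3100 or more made up 2 of 25 peaks in the locus, or 8.0% (Wilson 95% interval 2.22 to 25.0%), and 2.12% of the list.

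The next scores were 1365.27 at chr10:80922370-80923111 and 1047.71 at chr10:80853358-80854343. The first of these lay 4.86 kb from the wider peak with score 3100, and the other stood 25.1 kb from the gene start. They scored above 92.4% and 89.8% of the list. The remaining high peaks, chr10:80886780-80887382 with a score of 461.96 and chr10:80890583-80891096 with 398.04, lay on either side of the narrower peak with score 3100. All 6 high peaks fitted into a stretch of 69.8 kb from 80853358 to 80923111, which takes up 28.2% of the gene's length and held 9 peaks in all.

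The 6 low peaks of the proximal part were spread among and beyond the high ones. They scored 57.70, 79.05, 76.95, 53.44, 83.45 and 63.33 in order along the gene. The first stood before every high peak, the last 2 after every high peak, and the other 3 among them. The last, chr10:80943963-80944404, was the nearest peak before the gene midpoint, at 8.36 kb from it.

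The distal part of ZMIZ1 held only scores below the list's median. Its 5 peaks scored 50.33, 70.20, 126.10, 96.73 and 57.08 in order along the gene, with a median of 70.2. None reached the list's median of 128.26, although the highest, 126.10, lay just under it and above 49.4% of the list. The share that did was 6 of 12 in the proximal part (Wilson 95% interval 25.4 to 74.6%) and 0 of 5 in the distal part (0.0 to 43.4%). These intervals cover counting error only, and the difference between the shares was not tested. The highest peak, chr10:80999767-81000296, lay next to chr10:80999144-80999704 with 62 bp between their edges, and the second by score was chr10:81011399-81011934. The lowest, chr10:80954871-80955447, stood 2.62 kb past the midpoint, and its score was above 0.489% of the list.

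The upstream flank held 4 peaks, of which 2 stood close together. In order towards the gene they scored 367.90, 60.91, 147.85 and 108.99, and their centres stood 177, 174, 141 and 91.1 kb from the gene start. The highest, chr10:80651931-80652453, was the only peak outside ZMIZ1 among the highest-scoring 25.0% of the list and ranked seventh in the locus, while its neighbour at 2.48 kb was low. The third by distance, chr10:80686927-80687691, was the widest of the flank with 765 bp.

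The downstream flank held a compact group. Its 4 peaks scored 64.65, 133.83, 156.73 and 53.87 in order away from the gene. They all lay within 7.3 kb, from 81098916 to 81106212, and their centres stood 22.9 to 29.7 kb past the gene end. Their distance from PPIF, the next gene by order, was not measured. The middle peaks, chr10:81101876-81102311 and chr10:81102364-81103052, had the higher scores and were 52 bp apart. Of the 4 peaks, 2 reached the list's median and none the highest-scoring 25.0%. The rest of the downstream flank, up to the end of the window, held no peak.

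**Figure D2:**
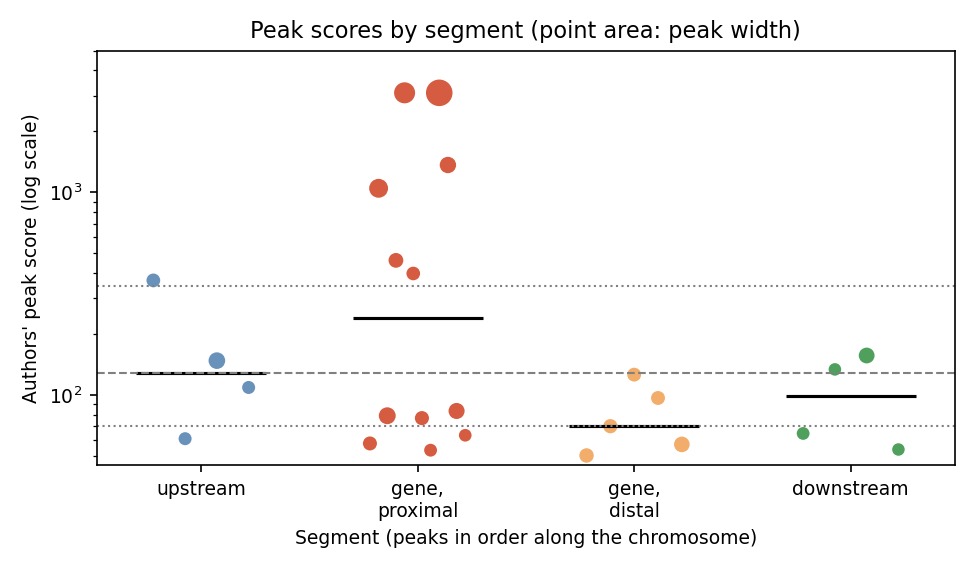
Each point is a peak of the locus, grouped by segment in order along the chromosome, with its score on a logarithmic y axis and a point area proportional to its width; black bars are segment medians (128.42 upstream, 240.75 proximal, 70.2 distal, 99.24 downstream) and grey lines the quartiles and the median of the whole list. The proximal part is the only segment with points above 367.90, and its 12 points leave a gap between 83.45 and 398.04.

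Peaks per length of sequence were also highest in the proximal part. There were 9.70 peaks per 100 kb in the proximal part (exact Poisson 95% interval 5.01 to 16.9) and 4.04 in the distal part (1.31 to 9.43), a ratio of 2.40. The flanks had 1.75 peaks per 100 kb upstream (0.476 to 4.48) and 3.23 downstream (0.881 to 8.28). These intervals assume independent peaks, an assumption that clusters break, and they carry no error between libraries, so no difference between segments is read from them. With peaks merged where their edges lay within 10 kb, the proximal part held 5 regions, the distal part 3, the upstream flank 3 and the downstream flank 1.

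**Figure D3:**
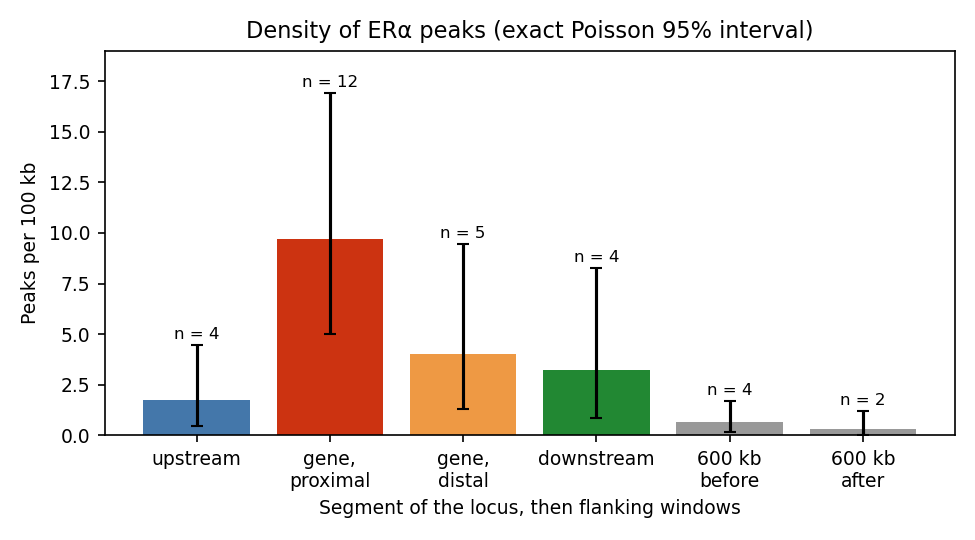
Bars give peaks per 100 kb in the 4 segments of the locus and in the windows of 600 kb before and after it, with exact Poisson 95% intervals and the number of peaks above each bar. The proximal part stands highest with 9.70 per 100 kb, and the windows before and after have 0.667 and 0.333.

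Many peaks of the locus stood close together. Another peak centre lay within 10 kb of 20 of the 25 peaks, or 80.0% (Wilson 95% interval 60.9 to 91.1%), against 41.4% of 12647 in the list (those placed on chromosomes 1 to 22 or X). The share was 10 of 12 in the proximal part, 4 of 5 in the distal part, 4 of 4 downstream and 2 of 4 upstream. Close peaks are part of what makes a window dense, so this share is a description and not a separate result.

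When peaks with edges within 10 kb were merged, the 25 peaks formed 12 regions, 7 of them with 2 or more peaks. The largest was the group of 5 peaks at chr10:80886780-80895223, which spans 8.44 kb and has the narrower peak with score 3100 as its second member. Its scores were 461.96, 3100, 398.04, 76.95 and 53.44 in order along the gene. Of the 9292 regions formed this way on chromosomes 1 to 22 and X, 1.52% held 5 or more peaks. The next region in the gene, chr10:80916904-80930542, held the wider peak with score 3100 followed by scores of 1365.27 and 83.45. Both peaks with score 3100 thus had other listed peaks close by. They were picked as the highest of the locus, so the lower scores of their neighbours follow from that choice.

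Some neighbouring peaks almost touched. In the locus, 8 of 25 peaks (32.0%) had the edge of another within 1 kb, against 16.0% of the list. Edges within 100 bp were found for 4 of the 25 (16.0%), against 3.13% of the list. These 4 peaks were the 2 pairs in the distal part and in the downstream flank with 62 and 52 bp between them. Close edges are also part of what makes a window dense, so both shares are a description and not a separate result. From a peak list, a broad bound region divided into 2 peaks and 2 separate sites cannot be told apart. Merging within 1 kb left 21 regions, 10 of them in the proximal part and 4 in the distal part.

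The proximal part had the largest median width of the 4 segments. The median width was 658 bp in the proximal part (range 442 to 1950 bp), 561 bp in the distal part (530 to 674 bp), 495.5 bp upstream (468 to 765 bp) and 444 bp downstream (432 to 689 bp). Over the whole list it was 505 bp. Within the proximal part, the 6 peaks at or above the list's median score had a median width of 864 bp. The 6 low-scoring ones ranged from 442 to 788 bp, so the larger median goes with the high scores. Width went with score across the 25 peaks, with a Spearman correlation of 0.52, and across the 12688 peaks of the list with 0.63. Across the 12 peaks of the proximal part the correlation was 0.82. This is a description across peaks of 1 library.

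The locus held many peaks for its length, and their median score was below that of the list. The windows of 600 kb before and after it held 4 and 2 peaks, with top scores of 191.85 and 140.13. When chromosomes 1 to 22 and X were divided from their first base into windows of 600 kb, up to the last peak of each, the median of 5065 windows was 1 peak, and 10 windows (0.197%) held 25 or more. For windows as long as the proximal part, 20 of 24512 (0.0816%) held 12 or more peaks, and 1.88% held at least the 5 of the distal part. The grid has fixed borders, whereas the locus was chosen with its peaks known, so these percentages are a description and not probabilities.

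**Figure D4:**
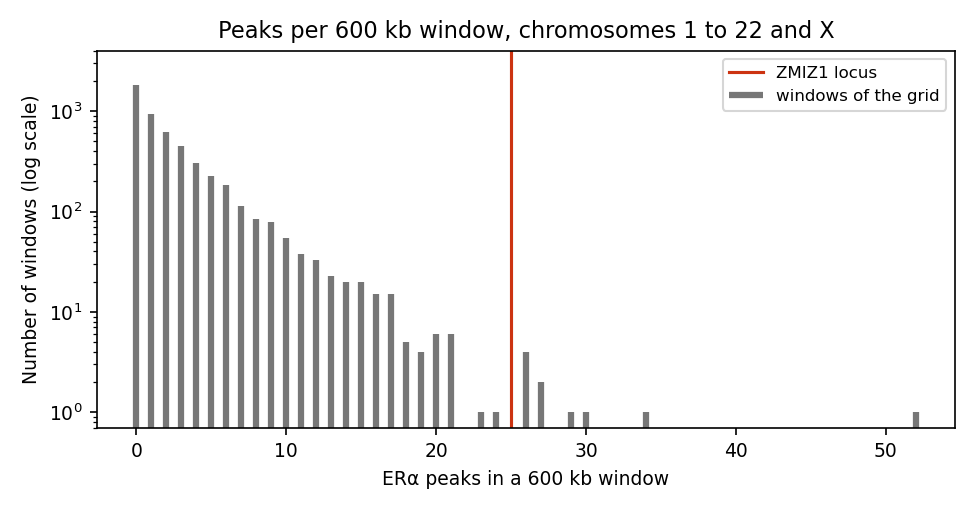
The number of windows of 600 kb on chromosomes 1 to 22 and X is plotted on a logarithmic y axis against the number of peaks they hold, and the red line marks the 25 peaks of the ZMIZ1 locus. The median window holds 1 peak, 10 windows hold 25 or more, and the highest holds 52.

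The median score of the locus was 96.73, against 109.4 for the other 717 peaks of chromosome 10 and 128.32 for the 12663 peaks outside the locus. Of the 25 peaks, 10 (40.0%, Wilson 95% interval 23.4 to 59.3%) reached the list's median, against 50% of the whole list by definition. The share was 45.9% for the other 717 peaks of chromosome 10. Scores under 100 belonged to 13 of the 25 peaks (52.0%, 33.5 to 70.0%) and to 41.1% of the list. For the other peaks of chromosome 10 that share was 46.7%. Both intervals include the shares set beside them, so no difference in score is read from them. Of the 24 windows of 600 kb with 20 or more peaks, 10 held at least 2 peaks with a score of 3100 or more, as the ZMIZ1 locus does. Over all 5065 windows the number was 32 (0.632%). A window with more peaks has more occasions to hold 2 such scores, so these counts are a description.

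The borders of the window lay in stretches without peaks. The outermost peaks inside were 52.2 kb from its start and 94.0 kb from its end, with scores of 367.90 and 53.87. The nearest peaks outside were chr10:80514014-80514519, 85.7 kb before the window with a score of 91.81, and chr10:81268042-81268572, 68.3 kb after it with a score of 140.13.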

How the data were processed

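The series holds 1 ERα ChIP library and 1 input library, and the measurement is the authors' peak list. The deposited score per peak is the authors' value of the ChIP library over the input library. Peak names carry the MACS prefix, per the file. Per the submitters' processing notes, hg19, Bowtie 0.12.9, HOMER and CASAVA 1.8 were used, each without a stated role. For the peak caller, neither version, threshold nor handling of duplicate reads is given in the sources used here. Read depth is unknown, so no level or floor that needs it is given. Starts are counted from 0 in the file, and 1 was added for printing.

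The gene ends were supplied in hg19 coordinates; the gene's length differed by 60 bp from RefSeq's table of GRCh38.p14. Peaks were placed by their centre. With 1 library per kind there is no test and no p-value. Intervals are Wilson for shares and exact Poisson for densities, at 95%, and cover counting error only. Alternatives were higher score limits, merging, placement by peak edge, and other windows and distances. In each segment the 3 highest scores, the peaks nearest the gene's ends and midpoint, and the largest cluster are named; all 25 scores are given. The locus, segments and comparisons were chosen with earlier results of these data known. Functions were tested on simulated data. Software was SciPy 1.17.1, NumPy 2.4.6 and pandas 2.3.3 under Python 3.11.15, with figures by matplotlib 3.10.9.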

Additional observations from a re-analysis of the deposited data

How the results depend on the processing

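The locus held 19 peaks with the window 100 kb shorter and 27 with it 100 kb longer on each side. The proximal part's share of the peaks, 48.0%, ran from 41.7% (5 of 12 regions merged within 10 kb) to 85.7% (6 of 7 peaks among the highest-scoring 25.0% of the list). Among those the distal part and the downstream flank held 0.0%, and the distal part also held 0.0% of the peaks that reached the median score. With flanks of 100 kb the upstream share fell to 4.55%. With the upper quartile as the dividing score, the downstream flank had 0.0% above it. Among peaks at or above the median score, median widths were 644 bp upstream, 864 bp in the proximal part and 562.5 bp downstream, and the distal part had no such peak. With reach set to 50 kb, 96.0% of the peaks had a neighbour, and with 5 kb, 68.0%. Of 45 alternative values, 35 lay within the interval or count limit of the value reported. The 10 that did not were the shares of 85.7%, 4.55% and 96.0%, the shares of 0.0% given above, and the median widths. The alternatives reuse the same peak list and many intervals are wide, so this count is not a measure of robustness. No paired analysis was possible because ChIP and input have 1 library apiece. Unknown read depth limits which weak sites were listed, and without a repeated ChIP no peak has an error.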
